A study of Mus musculus with 6 samples.

Results

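The genes described here make up the procollagen hydroxylase and chaperone machinery of the endoplasmic reticulum: P4ha1, P4ha2, P4ha3, P4hb, P3h1, Crtap, Plod1, Plod2, Plod3 and Serpinh1. They were chosen by name for their known function, with earlier results of these data known, and their symbols were matched to Ensembl identifiers. All 10 were found among the 53801 gene identifiers of the count tables, and all 10 passed the filter on low counts. The cells were MC3T3-E1, a mouse calvarial pre-osteoblast line, infected with lentiviruses that carry a hairpin, a ZsGreen1 reporter and a puromycin resistance gene. The Control group (3 libraries) carried a scrambled non-silencing RNA and the Hdac4-knockdown group (3 libraries) an Hdac4-shRNA, and both groups were selected in 5 μg/mL puromycin for 7 days. Hdac4 encodes a class IIa histone deacetylase, and the comparison asks how lowering it changed the transcripts of these cells. The labels list 3 Hdac4 hairpins without saying which one these libraries carry, and the text of the study names Hdac4-shRNA3 for sequencing. The labels describe separate RNA samples from each line and not repeated infections, so a difference between the infected cell lines and the action of the hairpin cannot be told apart, and p-values measure the spread between these RNA samples.

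Procollagen chains are modified while they are still unfolded in the endoplasmic reticulum. Prolyl 4-hydroxylase, a tetramer of catalytic alpha subunits (P4ha1, P4ha2 or P4ha3) and beta subunits (P4hb, protein disulfide isomerase), makes the 4-hydroxyproline that keeps the triple helix stable at body temperature and needs iron, oxygen, 2-oxoglutarate and ascorbate. A complex of P3h1, Crtap and the cyclophilin Ppib hydroxylates single prolines at the 3 position, the Plod genes encode lysyl hydroxylases whose products anchor sugars and crosslinks, and Serpinh1 encodes HSP47, a chaperone that binds the folded triple helix. Loss of several of these genes gives brittle bone or connective tissue disease, and bone-forming cells are among their heaviest users because bone matrix is mostly type I collagen.

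The reference sequence in front of 4 of the genes is shown because these are the alpha subunits, which moved in different directions, and Serpinh1, the most abundant member per length in the Hdac4-knockdown cells. RefSeq (GRCm38.p6) gave a promoter window, from 250 bases before to 50 bases after the annotated start, for 9 of the 10 genes (all but Plod2), with 2 windows for P3h1. Each line below gives the 250 bases before the start, 5′ to 3′ on the gene's strand, which is plus for the 3 alpha subunit genes and minus for Serpinh1. The intervals are chr10:59323046-59323295 for P4ha1, chr11:54100674-54100923 for P4ha2, chr7:100285270-100285519 for P4ha3 and chr7:99353240-99353489 for Serpinh1. Capitals mark ACGTG or GCGTG, the core letters of the hypoxia response element, on either strand in P4ha1, P4ha2 and Serpinh1, and GGGCGG, the core of a GC box, in P4ha3.
P4ha1: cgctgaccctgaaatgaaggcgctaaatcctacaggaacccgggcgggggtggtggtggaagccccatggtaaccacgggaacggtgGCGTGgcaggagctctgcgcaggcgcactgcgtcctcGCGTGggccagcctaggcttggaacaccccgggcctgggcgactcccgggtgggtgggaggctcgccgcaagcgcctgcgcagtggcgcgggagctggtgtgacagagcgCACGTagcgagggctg
P4ha2: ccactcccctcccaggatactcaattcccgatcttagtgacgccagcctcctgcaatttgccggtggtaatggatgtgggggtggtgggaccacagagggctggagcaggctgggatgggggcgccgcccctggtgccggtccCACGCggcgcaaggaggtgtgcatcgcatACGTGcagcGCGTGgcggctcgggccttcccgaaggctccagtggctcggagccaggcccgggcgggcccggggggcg
P4ha3: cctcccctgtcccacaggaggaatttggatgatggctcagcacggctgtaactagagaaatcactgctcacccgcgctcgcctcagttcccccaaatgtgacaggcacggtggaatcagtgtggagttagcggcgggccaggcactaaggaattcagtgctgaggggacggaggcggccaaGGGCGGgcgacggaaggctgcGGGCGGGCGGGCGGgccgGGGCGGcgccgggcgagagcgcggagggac
Serpinh1: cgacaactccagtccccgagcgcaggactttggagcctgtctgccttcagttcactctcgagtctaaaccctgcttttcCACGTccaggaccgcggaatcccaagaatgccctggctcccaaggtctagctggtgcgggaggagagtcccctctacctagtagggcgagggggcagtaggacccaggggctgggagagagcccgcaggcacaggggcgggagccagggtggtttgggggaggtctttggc

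ACGTG or GCGTG stood on either strand in 9 of the 10 windows, against 43.773% of all 32851 RefSeq mouse promoter windows of the same length. P3h1 entered with both of its windows, and 208 of the bases before the Plod3 start lie in exons of Znhit1. The base composition of the windows was not compared with that of all windows. P4ha3 had the window without these letters. P4ha2 carried ACGTG at -78 to -74 and at 11 to 15 from the start, and GCGTG at -69 to -65 and, on the other strand, at -107 to -103. P4ha1 carried GCGTG at -163 to -159 and at -126 to -122, and ACGTG on the other strand at -16 to -12, whereas Serpinh1 had 1 match, at -171 to -167. GGGCGG was found in 9 of 10 windows (all but Plod3) against 35.658% of all windows, and P4ha3 held 5 copies between -69 and -25, of which the 3 from -48 to -35 each overlap the next. P4ha2 held 4 copies, P4hb and Plod1 held 3 each, and the other windows held 2 or fewer. CCAAT was present in 4 of 10 windows against 37.408%, and the full endoplasmic reticulum stress element in 0 of 10 against 0.119%. That element is so rare that 10 windows would seldom hold it, so its absence tells nothing about these genes. These matches describe letters, not bound sites.

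The libraries held 29096544 to 31651826 read pairs assigned to genes. Hdac4 fell from 40.25 ± 0.41 to 29.65 ± 0.98 CPM (counts scaled to a common library size with edgeR's TMM factors; mean ± SD, n = 3 per group, as in all values that follow), a log2 fold change of -0.44 (SE 0.06; edgeR quasi-likelihood test, Benjamini-Hochberg adjusted p = 8.98e-07), and its raw counts of 1243, 1204 and 1136 against 950, 927 and 887 did not overlap. Differences between the groups were widespread. Of 14531 genes tested, 75.1% were called at an adjusted p below 0.05 and a log2 fold change beyond 0.05, with 38.0% higher and 37.1% lower in Hdac4-knockdown, a median log2 fold change of 0.01 and a median size of 0.46. Groups did not overlap for 76.8% of the genes. Against that background, 6 of the 10 members were called higher, 3 lower and 1 was not called, the groups did not overlap for 9 of 10, and the median log2 fold change was 0.27. The labels name no batch. Because these are bulk libraries, fewer cells of a type and less RNA per cell cannot be told apart.

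**Figure D1:**
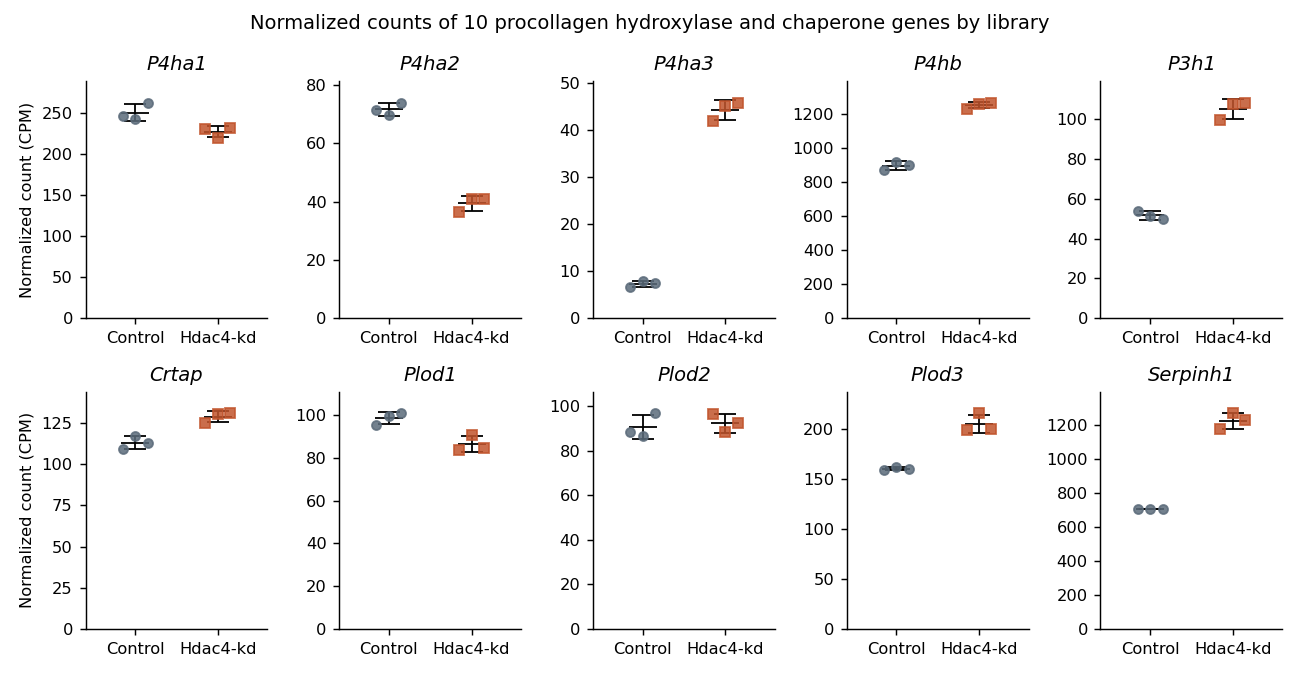
Normalized counts (CPM, TMM-scaled, axes from 0) of each of the 10 genes in the 3 Control (circles) and 3 Hdac4-knockdown libraries (squares), with the mean (long bar) and SD (caps). P4ha3 rises from 7.31 to 44.2 CPM while P4ha2 drops from 71.7 to 39.4, and the groups overlap only for Plod2.

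The alpha subunits of prolyl 4-hydroxylase moved apart. P4ha3, the least abundant of the 3 in Control cells, rose 6.05-fold in Hdac4-knockdown, P4ha2 fell to 55.0% of its Control level, and P4ha1, the main alpha subunit in most cells, was at 90.7%. P4ha3 (ENSMUSG00000051048; chromosome 7, 100285520 to 100319699, plus strand, GRCm38) had 203, 236 and 211 counts in Control and 1295, 1450 and 1377 in Hdac4-knockdown, or 6.64, 7.89 and 7.40 against 41.9, 45.0 and 45.8 CPM. Every Hdac4-knockdown library lay far above every Control library. Its log2 fold change of 2.60 (SE 0.08, edgeR adjusted p = 1.3e-16) ranked 1203 of the 14531 genes by size.

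P4ha2 (ENSMUSG00000018906; chromosome 11, 54100095 to 54131665, plus strand) measured 71.5, 69.6 and 74.0 CPM in Control and 36.4, 41.1 and 40.8 CPM in Hdac4-knockdown. The Hdac4-knockdown libraries were all below the Control libraries, with a log2 fold change of -0.86 (SE 0.06, edgeR adjusted p = 3.44e-11). P4ha1 (ENSMUSG00000019916; chromosome 10, 59323296 to 59373304, plus strand) measured 246.8, 242.5 and 262.8 CPM in Control and 230.2, 219.4 and 232.3 CPM in Hdac4-knockdown. The groups were close but did not overlap, and the log2 fold change was -0.14 (SE 0.04, edgeR adjusted p = 0.0058). This call was lost with scaling by library size alone (-0.08, adjusted p = 0.0812) and with upper quartile factors (-0.05, adjusted p = 0.273).

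P4hb (ENSMUSG00000025130; chromosome 11, 120560298 to 120573253, minus strand), which holds the alpha subunits in a soluble, active form and also works alone as a disulfide isomerase, was 1.40-fold higher. It measured 869.0, 918.8 and 900.1 CPM in Control and 1229, 1259 and 1266 CPM in Hdac4-knockdown. The groups were well separated (log2 fold change 0.48, SE 0.04, edgeR adjusted p = 3.4e-10). The log2 ratio of P4ha1, P4ha2 and P4ha3 reads together to P4hb reads in the same library went from -1.44 to -2.01, a fold of 0.675. A ratio taken within a library does not depend on the scaling between libraries.

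Per length, P4ha1 remained the most abundant alpha subunit and P4ha3 overtook P4ha2. With counts divided by the merged exon length of each gene, P4ha1 held 81.5% ± 0.31 of the family's level in Control and 73.02% ± 1.35 in Hdac4-knockdown. P4ha2 went from 15.38% ± 0.20 to 8.35% ± 0.56. P4ha3 went from 3.12% ± 0.30 to 18.63% ± 0.79, so that it stood below P4ha2 in every Control library and above it in every Hdac4-knockdown library. The size of the P4ha2 share rests on the length used, since its merged exons span 6239 bases and its longest protein-coding transcript 2263. With the longest protein-coding transcripts, P4ha2 went from 32.75% to 18.86% and P4ha3 from 3.20% to 20.26%, so that the pair lay close together in Hdac4-knockdown (17.71% to 19.84% against 19.54% to 20.83%, with overlapping ranges, although P4ha3 stood above P4ha2 within each library). The within-library log2 ratio of P4ha3 to P4ha1 rose by 2.74, a fold of 6.68, and that of P4ha2 to P4ha1 fell by 0.72.

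**Figure D2:**
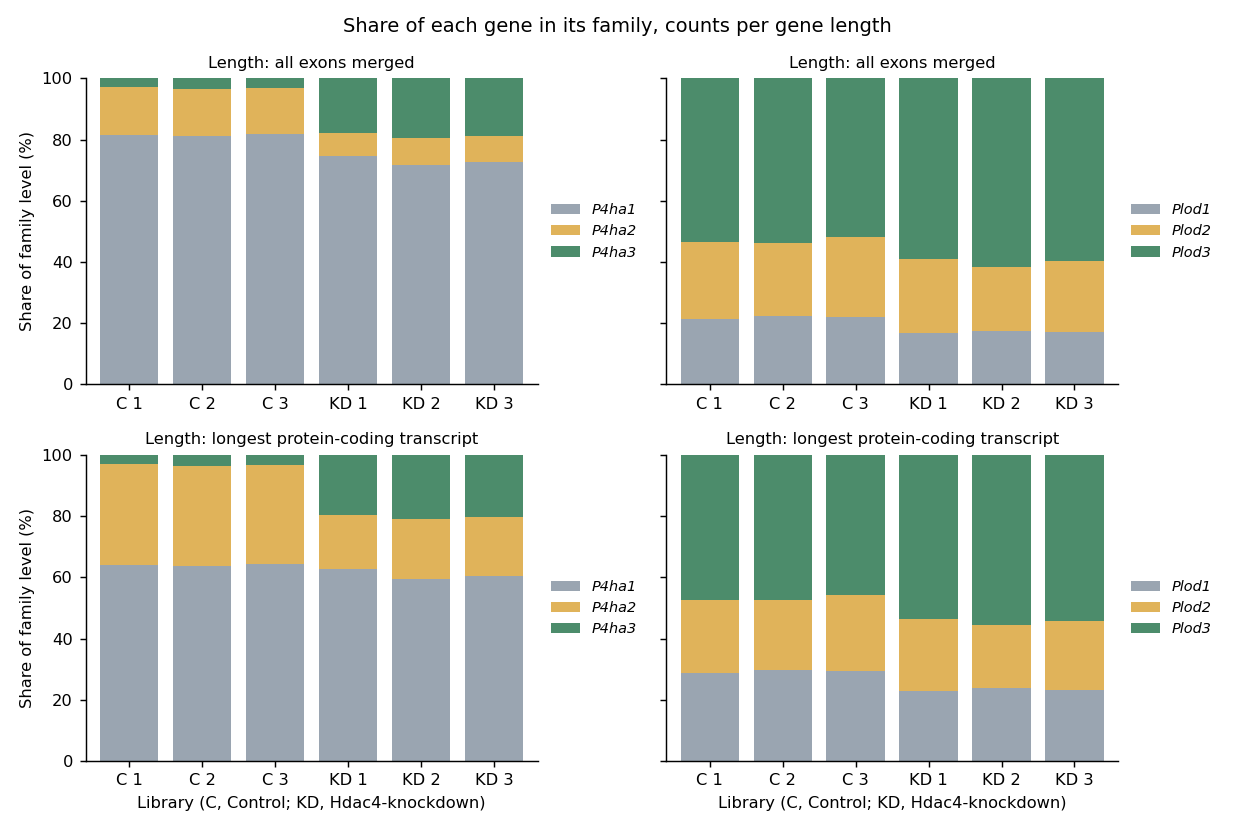
Share (%) of the summed level per length held by P4ha1, P4ha2 and P4ha3 (left) and by Plod1, Plod2 and Plod3 (right) in each library, 3 Control (C) and 3 Hdac4-knockdown (KD), with merged exon length in the upper row and longest protein-coding transcript length in the lower row. The P4ha3 block grows from 3.12% to 18.63% and the P4ha2 block shrinks from 15.38% to 8.35% with merged exons, and the Plod3 block grows from 53.0% to 60.2%.

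In the 3-hydroxylation complex P3h1 and Crtap rose and Ppib was not called. P3h1 (ENSMUSG00000028641; chromosome 4, 119232915 to 119248975, plus strand), its enzyme, measured 54.1, 51.2 and 49.9 CPM in Control and 99.5, 107.5 and 108.4 CPM in Hdac4-knockdown. No library of one group came near the other, and P3h1 was 2.03-fold higher (log2 fold change 1.02, SE 0.05, edgeR adjusted p = 4.72e-13). Crtap (ENSMUSG00000032431; chromosome 9, 114375134 to 114390675, minus strand), the helper protein without which P3h1 is unstable, measured 109.4, 117.0 and 113.0 CPM against 125.1, 130.5 and 130.9 CPM. The groups were separate and the change was small, 1.14-fold (log2 fold change 0.19, SE 0.04, edgeR adjusted p = 0.000745). Ppib, the peptidyl-prolyl isomerase of the complex, measured 69.8, 66.2 and 62.0 CPM against 62.7, 68.2 and 67.0 CPM. Its groups overlapped, with a log2 fold change of 0.00 (SE 0.05, edgeR adjusted p = 0.996). The log2 ratio of P3h1 to Crtap within a library went from -1.13 to -0.29, a fold of 1.78, and that of Ppib to Crtap from -0.78 to -0.97, a fold of 0.879.

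The lysyl hydroxylases each behaved differently. Plod3, which encodes LH3, a lysyl hydroxylase that also transfers glucose to hydroxylysine already carrying galactose, was 1.28-fold higher. Plod3 (ENSMUSG00000004846; chromosome 5, 136987019 to 136996648, plus strand) measured 159.0, 161.8 and 159.6 CPM in Control and 198.4, 215.3 and 199.9 CPM in Hdac4-knockdown. All Hdac4-knockdown libraries were above the Control libraries (log2 fold change 0.35, SE 0.04, edgeR adjusted p = 3.7e-07). On the opposite strand the gene Znhit1 shares 529 of the 4519 exon bases of Plod3, and the library kit is not described as keeping strand; Znhit1 itself held 795, 820 and 737 counts against 848, 834 and 845.

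Plod1 (ENSMUSG00000019055; chromosome 4, 147909753 to 147936767, minus strand), the hydroxylase of helical lysines, measured 95.5, 99.9 and 100.9 CPM in Control and 83.9, 90.8 and 84.5 CPM in Hdac4-knockdown. The Hdac4-knockdown libraries were lower without overlap (log2 fold change -0.19, SE 0.05, edgeR adjusted p = 0.00114). With upper quartile factors Plod1 was not called (-0.10, adjusted p = 0.0552). Plod2 (ENSMUSG00000032374; chromosome 9, 92542223 to 92608428, plus strand), the hydroxylase of telopeptide lysines, measured 88.7, 86.8 and 96.9 CPM against 96.8, 88.3 and 92.5 CPM. The groups overlapped, and the log2 fold change of 0.03 (SE 0.05, edgeR adjusted p = 0.64) was smaller than its error, although upper quartile factors called it higher (0.12, adjusted p = 0.0451). Gm38391, a locus annotated as still to be verified by experiment, shares 346 of the 5392 exon bases of Plod2 on the opposite strand, and its counts were 15, 18 and 13 against 64, 71 and 59. Per length, Plod3 held 53.0% ± 1.06 of the family in Control and 60.17% ± 1.22 in Hdac4-knockdown, Plod1 went from 21.82% ± 0.34 to 16.98% ± 0.32, and Plod2 from 25.17% ± 1.12 to 22.85% ± 1.54. The Plod2 shares overlapped between the groups. The log2 ratio to Plod1 within a library rose by 0.55 for Plod3 and by 0.22 for Plod2. For Plod2 the groups nearly touched, at -0.06 in the highest Control and -0.04 in the lowest Hdac4-knockdown library.

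Serpinh1 (ENSMUSG00000070436; chromosome 7, 99345376 to 99353239, minus strand) rose 1.74-fold. It measured 707.2, 702.4 and 704.4 CPM in Control and 1176, 1268 and 1228 CPM in Hdac4-knockdown. The Control libraries were nearly equal and all Hdac4-knockdown libraries lay above them (log2 fold change 0.80, SE 0.04, edgeR adjusted p = 1.89e-13). The exact two-sided permutation test of log2 CPM gave p = 0.1, the smallest that 3 libraries against 3 allow, for each member except Plod2 (p = 0.8).

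The members differed widely in level. On a scale of TPM (counts divided by merged exon length and scaled to the same total in each library), the order in Control was P4hb (940.0 ± 23.2), Serpinh1 (865.8 ± 7.12), Crtap (191.6 ± 5.64), P4ha1 (182.9 ± 8.61), Plod3 (106.4 ± 0.46), Plod2 (50.6 ± 3.23), Plod1 (43.8 ± 1.25), P3h1 (40.4 ± 1.73), P4ha2 (34.5 ± 1.23) and P4ha3 (7.00 ± 0.57). Among neighbours in that order, Crtap and P4ha1 had overlapping libraries and the others did not. In Hdac4-knockdown, Serpinh1 (1628 ± 36.6 TPM) stood above P4hb (1422 ± 10.1), P3h1 (88.8 ± 2.93) moved from place 8 to place 6, P4ha3 (45.8 ± 1.55) from place 10 to place 8, and P4ha2 (20.5 ± 1.08) was lowest. No neighbours overlapped there. Part of this order rests on the length used: with the longest protein-coding transcripts, an alternative chosen after seeing the data, P4hb and Serpinh1 overlapped in Control, P4ha2 took place 6 there and its libraries overlapped those of Plod1, Plod3 stood above P4ha1 and Plod1 and Plod2 overlapped in Hdac4-knockdown, and P4ha3 moved from place 10 to place 9. Serpinh1 was again first, P3h1 at place 6 and P4ha2 last in Hdac4-knockdown. The TPM of P4ha1 (175.8 to 192.5 against 171.1 to 185.1) and of Plod1 (42.5 to 44.9 against 40.4 to 43.1) overlapped between the groups, unlike their normalized counts.

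The clients of this machinery, the fibrillar procollagen chains, were nearly all higher. Of 11 chains tested, 10 were higher, 0 lower and 1 not called, with a median log2 fold change of 2.41, against 0.01 for all genes. The shares among all genes were 38.0% higher and 37.1% lower. Col1a1, the major chain of bone collagen, measured 322.4, 351.0 and 340.1 CPM in Control and 10810, 11390 and 10850 CPM in Hdac4-knockdown. That is a log2 fold change of 5.03 (SE 0.04, edgeR adjusted p = 6.19e-24), while Col1a2, its partner, changed by 2.82 and Col3a1 by 0.23. The largest log2 fold changes were those of Col11a1 (7.16) and Col2a1 (5.93), chains best known from cartilage, which stood at 1.08 ± 0.14 and 0.83 ± 0.18 CPM in Control, and Col11a2 changed by 0.60. Col24a1, named after its values were seen, was the chain not called (-0.72, adjusted p = 0.0579).

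All 11 chains together held 0.402%, 0.417% and 0.416% of the gene counts in Control and 2.55%, 2.64% and 2.53% in Hdac4-knockdown, a fold of 6.25. Col1a1 (337.8 against 11010 CPM) and Col1a2 (1213 against 8572 CPM) made up most of the Hdac4-knockdown sum of 24870 to 25920 CPM. Col3a1, the most abundant chain in Control, went from 1787 to 2098 CPM. The pooled ratios below therefore rest mainly on the type I chains. The 10 members together held 0.237%, 0.240% and 0.242% against 0.338%, 0.353% and 0.349%, a fold of 1.45. For each Serpinh1 read there were 5.78 to 6.08 fibrillar chain reads in Control and 20.2 to 21.3 in Hdac4-knockdown. For each P4ha read there were 12.3 to 13.4 against 78.0 to 84.8. These ratios of raw reads were 3.46-fold and 6.37-fold higher in Hdac4-knockdown. Because the genes differ in length, the ratios were also taken per length, an alternative chosen after seeing the data, and were then 4.0-fold and 6.86-fold higher with merged exons and 3.44-fold and 6.26-fold higher with the longest protein-coding transcripts. In all 9 ratios compared in this way the groups did not overlap, and each gave an exact two-sided permutation p = 0.1 (adjusted over the 9 ratios, 0.1), the smallest this design allows.

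**Figure D3:**
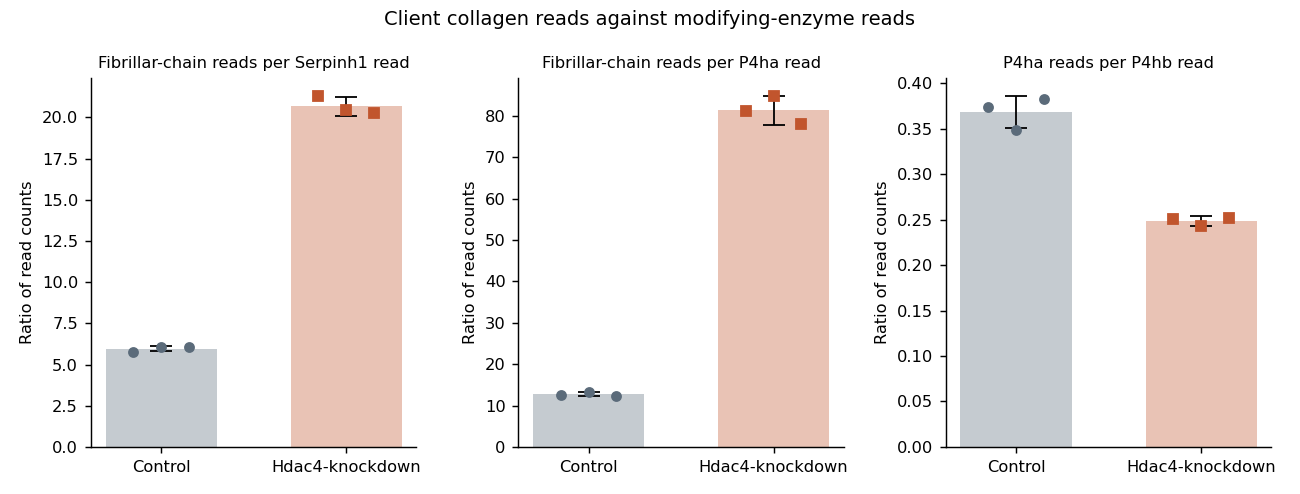
Ratios of raw read counts within each library, with bars for the group mean, whiskers for the SD and points for the 3 Control (circles) and 3 Hdac4-knockdown libraries (squares); axes start at 0. Fibrillar chain reads per Serpinh1 read lie at 5.78 to 6.08 in Control and 20.2 to 21.3 in Hdac4-knockdown, those per P4ha read at 12.3 to 13.4 and 78.0 to 84.8, and P4ha reads per P4hb read are lower in Hdac4-knockdown.

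Other genes that modify procollagen mostly rose. Of 11 on the list, 10 were tested, with 7 higher, 2 lower and 1 not called (Ppib) and a median log2 fold change of 0.43. Among all genes, 38.0% were higher and 37.1% lower. The largest changes were in the sister prolyl 3-hydroxylases. P3h2, which acts mainly on basement membrane collagen, measured 2.88, 2.91 and 3.09 CPM against 22.3, 28.8 and 26.4 CPM (log2 fold change 3.13, SE 0.11, edgeR adjusted p = 3.06e-15). P3h3 measured 11.3, 13.5 and 11.7 CPM against 59.9, 73.5 and 65.7 CPM (2.45, SE 0.08, edgeR adjusted p = 7.21e-16). In both genes the groups lay far apart, whereas P3h4, a partner of P3h3 in lysine hydroxylation by Plod1, changed by 0.19. Fkbp10, the chaperone FKBP65, changed by 0.55 and Colgalt1, the galactosyltransferase that acts on hydroxylysine, by 0.56. The lower genes were Tmem38b (-0.82), which encodes a cation channel of the endoplasmic reticulum, and the isomerase Fkbp7 (-0.21). Colgalt2 was too low to test, with 0, 0 and 0 counts in Control and 8, 9 and 0 in Hdac4-knockdown.

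The export of procollagen and general folding were covered by lists whose counts are to be read against 38.0% higher and 37.1% lower among all genes. Of 11 export genes, 7 were higher and 2 lower (median 0.21), with Sec24d, a cargo adaptor of the COPII coat, at 0.95 and Mia3, the TANGO1 receptor that loads procollagen, at 0.60. The lower pair were the COPII GTPases Sar1b (-0.27) and Sar1a (-0.17). Of 14 chaperones and oxidases of the endoplasmic reticulum, 7 were higher and 3 lower (median 0.14). Dnajb9 (1.05) and Hspa5 (0.76), which encode the co-chaperone ERdj4 and BiP, were the highest. The oxidases Ero1b (-1.10) and Ero1a (-0.88), which recharge disulfide isomerases such as P4hb, were the lowest. Of 6 regulators of secretion, 5 were higher and 1 lower (median 0.91), led by Creb3l1 (1.20), the transcription factor OASIS of bone-forming cells, and Xbp1 (1.07). Atf4 changed by 0.16 and Atf6 by -0.26.

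**Figure D4:**
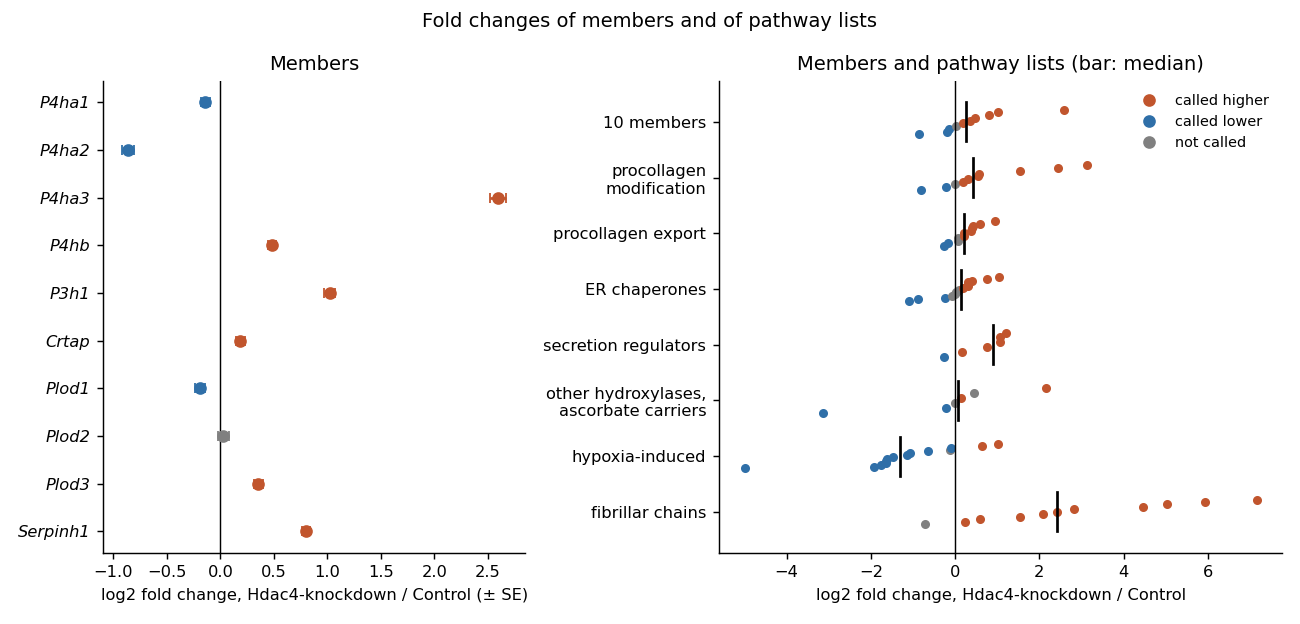
Log2 fold changes (Hdac4-knockdown over Control) of the 10 members with SE (left) and of the members and 7 pathway lists (right; each dot a tested gene, black bar the median), coloured by call. The members spread from -0.86 (P4ha2) to 2.60 (P4ha3); the fibrillar chains have the highest median (2.41) and the hypoxia-induced genes the lowest (-1.31).

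The members P4ha1, P4ha2, Plod1 and Plod2 are known targets of the hypoxia-inducible factor, and the prolyl hydroxylases that sense oxygen need the same cofactors. Of 14 hypoxia-induced genes outside the members, 2 were higher, 11 lower and 1 not called, with a median log2 fold change of -1.31. All genes tested were 38.0% higher and 37.1% lower. Slc2a1, the glucose transporter GLUT1, fell to 26.6% (-1.91, edgeR adjusted p = 2.13e-17) and Pfkfb4 to 29.7% (-1.75). Pfkfb3 changed by 0.64 and was, with Car9 (1.02, named after its values were seen), one of the higher pair, whereas Vegfa changed by -0.09 (adjusted p = 0.0473), a call lost under 5 other scalings, filters or tools. The 4 members with this background had log2 fold changes of -0.14 (P4ha1), -0.86 (P4ha2), -0.19 (Plod1) and 0.03 (Plod2, not called). The P4ha1 and Plod1 calls were lost with upper quartile factors. Any link between the hypoxia-induced genes and the changes of these members was not tested. Among 6 other prolyl hydroxylases and ascorbate transporters, 2 were higher and 2 lower (median 0.08). Egln3, an oxygen sensor that hypoxia induces, fell by 3.13 on the log2 scale to 11.4% of Control, Egln1 changed by -0.21 and Egln2 by 0.01 (not called). Slc23a2, a transporter of ascorbate, changed by 0.15, and P4htm, a transmembrane prolyl hydroxylase named after its values were seen, by 2.17 from 0.78 ± 0.16 CPM.

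Marker genes were read beside these results, and their counts stand against 38.0% higher and 37.1% lower among all genes. Of 8 osteoblast markers, 5 were tested, 3 of them higher and 1 lower. Their summed level was 3209 to 3272 CPM in Control and 2127 to 2199 in Hdac4-knockdown, and Spp1 made up most of it (3154 ± 30.9 against 2046 ± 36.1 CPM, called lower). The higher markers were Runx2 (69.9 ± 4.64 against 79.5 ± 5.68 CPM), Dmp1 (3.58 ± 0.24 against 20.9 ± 0.91 CPM) and Sp7 (0.15 ± 0.08 against 2.71 ± 0.67 CPM), and Phex was not called (10.4 ± 0.68 against 9.74 ± 1.03 CPM). The groups overlapped for Runx2, although it was called, and did not for Dmp1 and Sp7. Alpl had at most 3 counts in any library, Bglap at most 12, and Ibsp 0 counts in every Control library and at most 7 in Hdac4-knockdown. All 5 myogenic markers were lower, with summed levels of 828.5 to 867.5 CPM against 111.5 to 126.5. Des made up most of these sums (737.0 ± 18.5 against 101.8 ± 8.39 CPM). Myod1 went from 67.9 to 8.96 CPM, Myf5 from 26.9 to 3.19, Myog from 16.8 to 3.94 and Pax7, low throughout, from 1.05 to 0.01. Of 5 adipocyte markers 2 were tested and both were lower (43.1 to 46.8 against 8.89 to 10.1 CPM summed), with Adipoq and Plin1 at or near 0. Of 5 chondrocyte markers 3 were tested and 2 were higher (125.0 to 128.0 against 168.6 to 185.9 CPM summed), with Acan at 0 throughout. Sox9 made up nearly all of the Control sum and was not called (125.7 ± 1.66 against 127.4 ± 10.2 CPM). The rise lay almost wholly in Col2a1 (0.83 ± 0.18 against 51.1 ± 2.40 CPM), which was also counted among the fibrillar chains. Comp went from 0.03 ± 0.04 to 0.65 ± 0.11 CPM, and Matn1 had at most 2 counts in any library. Endothelial markers (1 of 4 tested, higher; 0.262 to 0.421 against 2.81 to 3.16 CPM), macrophage markers (3 of 5 tested, 2 higher; 1.64 to 2.75 against 5.11 to 6.08 CPM, Adgre1 at 0 throughout) and epithelial markers (1 of 4 tested, higher; 5.65 to 6.45 against 7.08 to 8.56 CPM) were low in both groups. The part of these shifts in the changes of the hydroxylases and chaperones was not tested.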

How the data were processed

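RNA was sequenced from 3 Control and 3 Hdac4-knockdown RNA samples of MC3T3-E1 cells after poly-T selection with the NEBNext Ultra kit. The authors deposited 1 table of raw counts per library. Their processing notes name FastQC, STAR 2.7.3a, HTSeq 0.12.4 and the mm10 build, and the annotation release and strand setting are not given in the sources used here. Reads that fit several places or several genes are kept apart in the 5 summary lines of each table (14.29% to 15.03% of all reads with those on no gene) and stayed out of library sizes. Of 53801 identifiers, 53706 were found in GENCODE M21 (GRCm38), which gave symbols, positions and lengths.

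Counts were filtered with filterByExpr (minimum count 10, minimum total 15), scaled by TMM and tested with edgeR 4.0.16 (R 4.3.3) by the quasi-likelihood test over all genes, with Benjamini-Hochberg adjustment. Genes were called at an adjusted p below 0.05 and a log2 fold change beyond 0.05, the thresholds of the study. The fit was also run on simulated counts whose planted changes exceeded the median size of change in these data. Small changes were therefore not covered by that run. Single values were compared by exact permutation tests with scipy 1.17.1 (pseudocount of 0.5 CPM). DESeq2 1.42.0, limma-voom (limma 3.58.1), other scalings, other filters, a replicate block and leaving out each library were the alternatives.

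All 10 members were named, with Hdac4, fixed examples (Ppib, P3h2, P3h3, P3h4, Fkbp10, Colgalt1, Colgalt2, Col1a1, Col1a2, Col3a1) and, per pathway list, the 2 lowest and 2 highest log2 fold changes among genes whose mean count over the libraries reached 100. The members and lists were chosen with earlier results of these data known. The lists were described by counts and medians, without a set test. Promoter windows and their motif letters came from RefSeq (GRCm38.p6), searched on both strands. Libraries of 1 group differed by more than counting noise (chi-square per degree of freedom 3.38 to 9.15), and each counted as 1 replicate. That spread does not show that they came from separate cultures or infections.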

Additional observations from a re-analysis of the deposited data

How the results depend on the processing

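P4ha2, P4ha3, P4hb, P3h1, Crtap, Plod3 and Serpinh1 kept their direction and call in all 14 alternative settings of the test, with log2 fold changes of -0.89 to -0.77, 2.52 to 2.69, 0.45 to 0.57, 0.98 to 1.11, 0.15 to 0.28, 0.32 to 0.44 and 0.77 to 0.89. P4ha1 was no longer called with library size alone (-0.08) or upper quartile factors (-0.05), and Plod1 with upper quartile factors (-0.10), which left 1 member lower; these factors moved the median of all genes from 0.01 to 0.10 and called Plod2 higher (0.12). Plod2 changed sign without the filter on low counts (-0.0014) and when Control replicate 2 was left out (-0.0139; range over left-out libraries -0.0139 to 0.0632), without a call. At a log2 threshold of 0.5, 3 members were higher and 1 lower, and at 1, 2 were higher and 0 lower. Higher export genes numbered 9 in place of 7 with library size alone or upper quartile factors. Higher chaperones and oxidases numbered 8 in place of 7 with library size alone and 10 with upper quartile factors. With at least 10 counts in every library, both lists had 8 higher genes. Lower chaperones and oxidases numbered 4 in place of 3 without the filter on low counts or with limma-voom. Lower procollagen modification genes numbered 1 in place of 2 (Fkbp7 lost) with library size alone, upper quartile factors, at least 10 counts in every library or DESeq2, lower export genes 1 with upper quartile factors (Sar1a lost), and lower fibrillar chains 1 with at least 10 counts in every library (Col24a1). With the longest protein-coding transcripts, shares in Control and Hdac4-knockdown were 64.05% and 60.88% for P4ha1, 32.75% and 18.86% for P4ha2, 29.26% and 23.31% for Plod1 and 46.93% and 54.56% for Plod3, with 20.26% for P4ha3 in Hdac4-knockdown and 23.81% for Plod2 in Control.

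With the replicate number as a block, 6 members were higher and 3 lower, as without it. The labels tie nothing to that number: deviations of same-numbered libraries correlated at -0.00523, 0.0956 and 0.0206, and 2 of the 6 libraries correlated best with their own number. Depth did not limit the members, which held at least 203 counts in every library, but libraries that are not said to come from separate infections cannot show how far these values would vary between infections.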
